A study of Mus musculus with 6 samples.

Results

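The SLC25 genes encode the mitochondrial carrier family, and 39 of the 14003 genes in the deposited table belong to it by the rule used here: every gene whose name is Slc25a followed by a digit, with Slc25a1 left out. Their transcripts were compared in cells labelled MC3T3-E1, an established line of mouse preosteoblasts with a wild-type genotype label. One group of 3 libraries came from untreated cells and the other, also of 3, from cells given 200 µM sulfasalazine for 24 h. Sulfasalazine is an anti-inflammatory drug that also inhibits the cystine transporter of the plasma membrane. The series title concerns TNFα, its receptor, NF-kB signalling and fracture healing. No vehicle is named for either group. Separate cultures are not stated for the replicates, and p-values therefore measure the spread between these libraries, which may be technical.

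Mitochondrial carriers are small proteins of the inner mitochondrial membrane, built from repeats of one pair of membrane-spanning helices. They let ATP, phosphate, amino acids, carboxylates, acylcarnitines, iron and cofactors cross a membrane that is otherwise closed to them. Each carrier alternates between a state open to the cytosol and one open to the matrix, often swapping one substrate for another. In bone-forming cells the family supplies the matrix with fuels and exports the ATP used for matrix protein synthesis. They are made in the cytosol and imported by receptors and small chaperones of the membrane space.

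FPKM, the deposited unit, counts fragments relative to gene length and sequencing depth, which allows a rough comparison of levels between genes. Its total is not fixed, so a comparison between libraries depends on the scaling. All FPKM summed to 660161, 683815 and 708379 in control replicates 1 to 3, against 725968, 731072 and 706528 in the treated ones. Recovered reads per library ranged from 15980940 in control replicate 3 to 21579133 in sulfasalazine replicate 1. Control replicate 3 stood apart from the other controls: among the 29 carriers called below, it lay on the sulfasalazine side of the mean of control replicates 1 and 2 for 21. The same held for 69.8% of all 6878 called genes. Results that change without it are named with their values. Reads from the 13 genes of mitochondrial DNA made up 1.47% to 2.21% of each control library and 3.72% to 3.80% of each treated one. Of 12 osteoblast markers, 7 were measured, and 5 of these averaged under 1 FPKM, among them Col1a1, Sp7 and Bglap, which are defining genes of the lineage. The other 5 (Alpl, Col1a2, Dlx5, Dmp1 and Ibsp) had no row among the 14003 genes. Only Runx2 and Spp1 were above 10 FPKM, so the list as a whole did not bear out the preosteoblast label. The summed osteoblast markers, mostly Spp1, reached 1539.9 to 2099 FPKM untreated against 870.1 to 1078 FPKM treated. Summed epithelial markers, nearly all from Krt8, Krt18 and Krt19, reached 1293 to 1452 FPKM untreated against 1884 to 2093 FPKM treated; Krt8 and Krt18 rose, and Krt19 fell from 349.5 ± 43.2 to 154 ± 42.9 FPKM (limma log2 fold change -1.21, adjusted p = 0.0013). Sums for macrophages and osteoclasts, almost all Cd68, were 31.98 to 56.3 FPKM untreated against 17.8 to 28.7 FPKM treated, while the osteoclast gene Acp5 was at 0.223 ± 0.179 FPKM untreated against 1.13 ± 0.322 FPKM treated. For chondrocytes, almost all Sox9, they were 153 to 166 FPKM against 27.2 to 40.9 FPKM. Fibroblast and pericyte markers summed to 4.61 to 11.4 FPKM untreated against 2.19 to 6.32 FPKM treated. Endothelial, adipocyte and skeletal muscle markers summed to under 1 FPKM in every library, with at most 0.819 FPKM. The part of these markers in the carrier results was not tested. In bulk RNA, fewer cells of one type and less RNA per cell cannot be told apart.

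Most of the family differed between the groups, with more carriers higher than lower after sulfasalazine. Of the 37 carriers with at least 1 FPKM in at least 3 libraries, 20 were higher, 9 were lower and 8 did not pass the test (limma on log2(FPKM + 1), Benjamini-Hochberg adjusted p under 0.05 over all 10338 genes tested). That is 78.4% of the tested carriers, beside 66.5% of all tested genes; 54.1% were higher, beside 37.2%, and 24.3% were lower, beside 29.3%. The median log2 fold change, sulfasalazine over control, was 0.46 for the tested carriers and 0.08 for all tested genes. The same shares of all tested genes stand beside the smaller counts given below for each substrate group. The split of 20 to 9 became 17 to 13 under quantile normalization and 19 to 13 under median-of-ratios scaling. A change above 1 on the log2 scale was seen for 14 carriers, 10 higher and 4 lower, where 33.2% of all tested genes passed that mark. Slc25a35, Slc25a42 and Slc25a23, all among the 10 rises above 1, reached the filter only in the sulfasalazine libraries. Slc25a53 reached it only in the controls, so these 4 had to differ. The split of 10 to 4 thus rests in part on the filter. Of the 33 others tested, 17 were higher and 8 lower. Without any filter, 20 of the 39 carriers were higher and 8 lower, where 30.5% and 22.4% of all 14003 genes were.

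Groups did not overlap for 31 of the 37 tested carriers, where 71.4% of all tested genes had such a separation. The 4 carriers that passed the filter through 1 group only had to separate. Without them it was 29 of 35, with the untested Slc25a27 and Slc25a34 included. Sulfasalazine libraries lay wholly above the controls for 23 of all 39 carriers and wholly below for 10. The untested Slc25a27 and Slc25a34 are among the 23. No share by direction was computed over all genes, so this split describes the carriers only and has no baseline. With 3 libraries against 3, an exact permutation test of a single gene cannot go below p = 0.1. The carriers outside the test, Slc25a27 and Slc25a34, stayed under the filter: Slc25a27 stood at 0.336, 0.158 and 0.381 FPKM untreated against 0.542, 0.564 and 0.414 FPKM treated, and Slc25a34 at 0.0936, 0.105 and 0.137 FPKM untreated against 0.152, 0.275 and 0.152 FPKM treated. Both were low in every library and were not tested. Levels of the family spanned from below 1 FPKM to the 920.2 FPKM of Slc25a39 in control replicate 3, with 5 carriers above 100 FPKM on average, 19 between 10 and 100 FPKM, 12 between 1 and 10 FPKM and 3 below 1 FPKM.

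**Figure D1:**
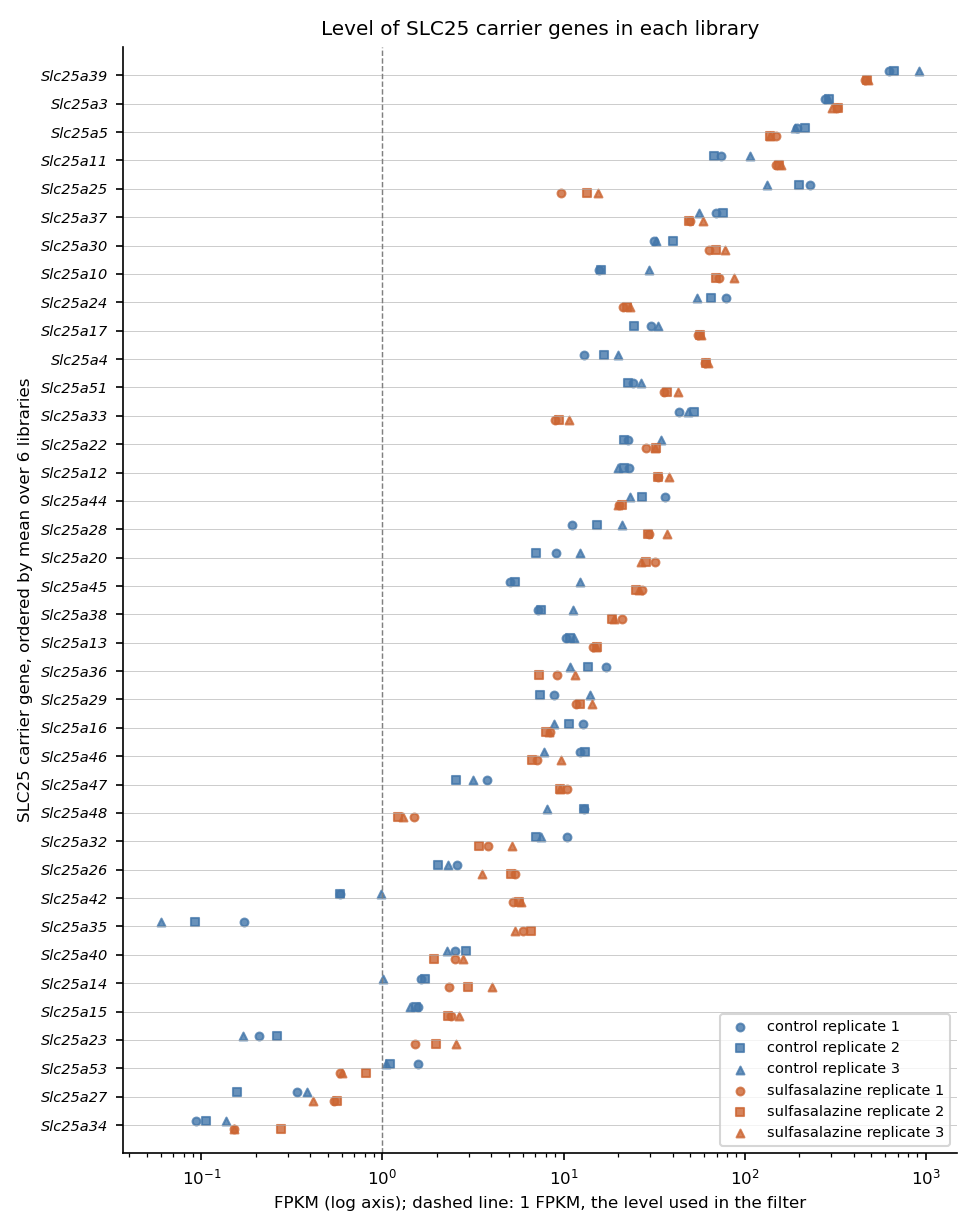
FPKM of each SLC25 carrier gene reported (rows, ordered by mean level) in each of the 6 libraries on a log axis, blue for control and orange for sulfasalazine, with 1 symbol shape per replicate number and a dashed line at the 1 FPKM filter. Slc25a25, Slc25a33 and Slc25a48 lie clearly lower with sulfasalazine, Slc25a35, Slc25a42 and Slc25a4 clearly higher, and control replicate 3 is often the control nearest to the orange points.

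**Figure D2:**
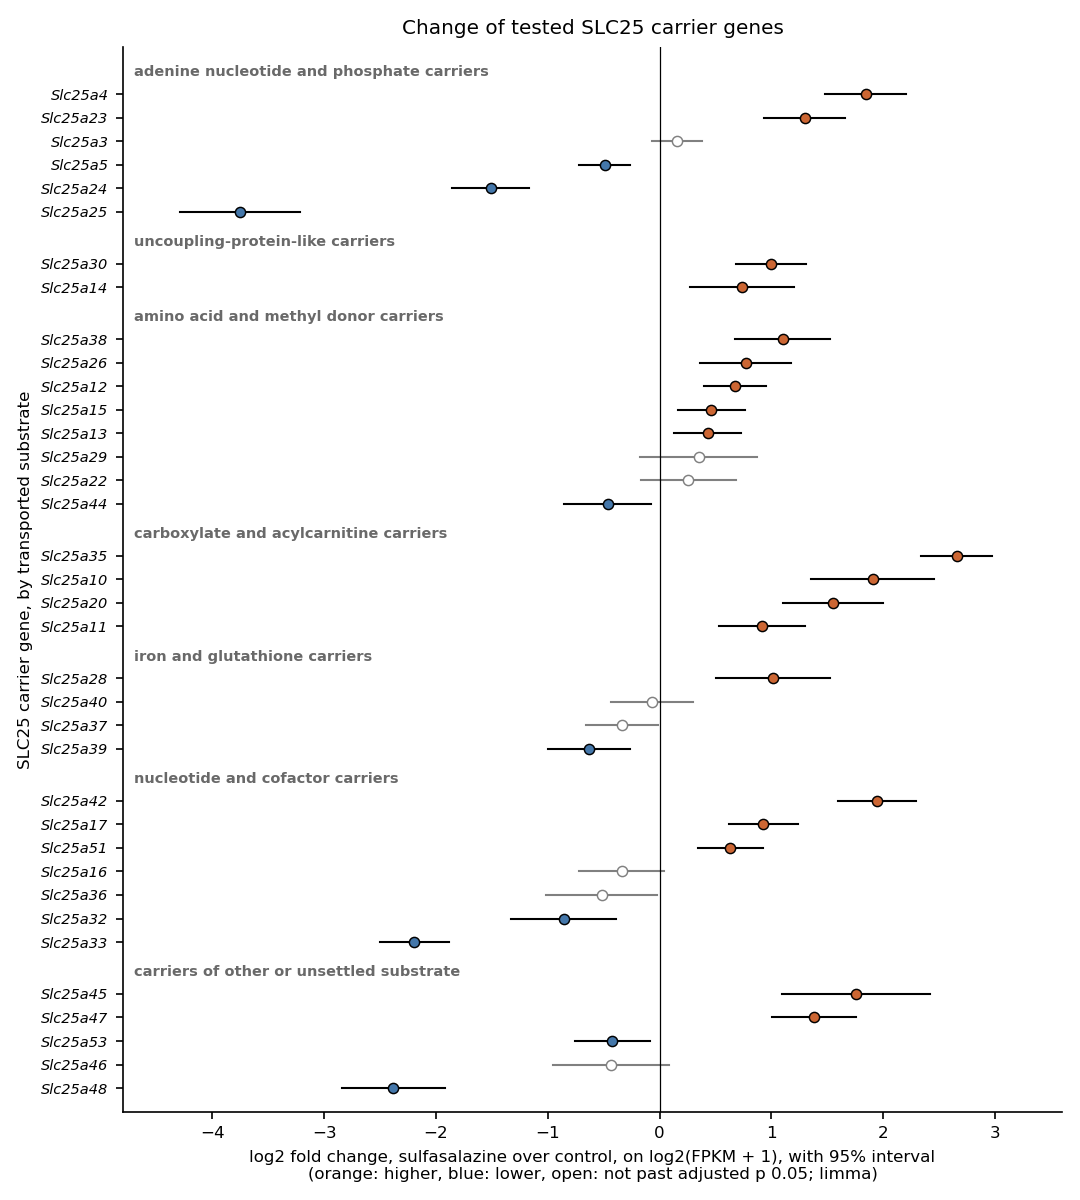
Log2 fold change (sulfasalazine over control, on log2(FPKM + 1)) with its 95% interval for the tested carriers reported, grouped by the substrate assigned to them. All 4 tested carboxylate and acylcarnitine carriers lie to the right of 0, among them Slc25a35, whose substrate is not settled and which passed the filter only in treated libraries. The adenine nucleotide and phosphate carriers run from -3.75 (Slc25a25) to 1.84 (Slc25a4).

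The first group moves ATP, ADP and phosphate, and its members went in opposite directions, 2 higher, 3 lower and 1 not called of 6 (1, 3 and 1 of 5 without Slc25a23). Slc25a25 encodes a calcium-regulated carrier that swaps ATP-Mg for phosphate (chromosome 2, 32414487 to 32451445, - strand, coordinates as deposited, which match GRCm38). It had the steepest fall of the family, with 230.2, 201 and 133 FPKM across control replicates 1 to 3, against 9.67, 13.4 and 15.6 FPKM across the treated ones. All sulfasalazine libraries lay far below the lowest control, which was control replicate 3 (limma log2 fold change -3.75 with SE 0.23, adjusted p = 9.7e-06). Of its exonic bases, 4.82% lie in Naif1 on the opposite strand, which stood at 3.16 ± 0.584 FPKM untreated against 2.98 ± 0.4004 FPKM treated. Slc25a24, a second calcium-regulated ATP-Mg carrier, gave 79.1, 65.3 and 54.4 FPKM across control replicates 1 to 3, against 21.3, 22.5 and 23.3 FPKM across the treated ones. It fell without overlap (limma log2 fold change -1.51 with SE 0.15, adjusted p = 6.3e-05). Slc25a23, the third of these, was near 0 in the controls, at 0.209, 0.262 and 0.1702 FPKM untreated against 1.51, 1.98 and 2.54 FPKM treated, and rose (limma log2 fold change 1.30 with SE 0.16, adjusted p = 0.00018). Its controls rest on 4 to 8 reads per library, and its log2 fold change was 2.73 with a pseudocount of 0.1.

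Both ADP/ATP carriers, which export ATP from the matrix, changed and did so in opposite directions. Slc25a4, the form typical of heart and muscle (chromosome 8, 46206797 to 46211284, - strand), gave 13.02, 16.7 and 20.1 FPKM across control replicates 1 to 3, against 60.5, 60.9 and 62.5 FPKM across the treated ones. Every sulfasalazine library was above every control (limma log2 fold change 1.84 with SE 0.16, adjusted p = 3.4e-05). Slc25a5, the form of dividing cells (chromosome X, 36795651 to 36798807, + strand), gave 194, 216 and 191 FPKM across control replicates 1 to 3, against 149.8, 138 and 139 FPKM across the treated ones. Here the sulfasalazine libraries were lower (limma log2 fold change -0.49 with SE 0.10, adjusted p = 0.0029); 33.8% of the 50-base words of Slc25a5 occur in other genes, most in Gm5560, so its reads are uncertain. The ratio of Slc25a4 to Slc25a5 was 0.0672, 0.07702 and 0.105 in the controls and 0.403, 0.443 and 0.451 with sulfasalazine, while their summed level was 207, 233 and 211 FPKM untreated against 210.3, 198 and 201 FPKM treated. The sums of the groups overlapped, and the ratios did not. Slc25a3, which imports phosphate for ATP synthesis, gave 278, 291 and 288 FPKM across control replicates 1 to 3, against 324, 327 and 304 FPKM across the treated ones. Its groups did not overlap, but the change was small and did not pass (limma log2 fold change 0.16, 95% interval -0.07 to 0.38, adjusted p = 0.18); under quantile normalization it passed as higher (log2 fold change 0.34, adjusted p = 0.010).

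To set the sequence beside these changes, promoters were taken from RefSeq (GRCm38.p6), which held an entry for 30 of the 39 carriers. Among the carriers without an entry are Slc25a26, Slc25a27, Slc25a32, Slc25a35, Slc25a37, Slc25a44, Slc25a46 and Slc25a51. In the 250 bases before each start, 7 motifs were searched on both strands, and the share among the 39 windows of these 30 carriers is set beside that among all 32851 windows. The cyclic AMP response element TGACGTCA was found in 2 windows (5.13%, beside 1.55%), 1 of the 3 starts of Slc25a25 and the start of Slc25a36. The CCAAT box occurred in 48.7% of the carrier windows, beside 33.8%, and the GC box GGGCGG in 76.9%, beside 32.7%. The antioxidant response element core TGACNNNGC occurred in 23.1%, beside 10.2%, the E-box CACGTG in 15.4%, beside 6.02%, and the core of the nuclear respiratory factor site in 2.56%, beside 3.74%. The amino acid response element core TGATGNAAN occurred in 0 windows, beside 3.44%. The cyclic AMP and antioxidant motifs share their first letters TGAC, but as searched they cannot lie on the same bases. Genes are not independent and carriers with several starts count more than once, so these shares are a description. Of the matched carriers, 4 are shown 5′ to 3′ on the minus strand, without annotated exon bases, because they include the steepest fall, a strong rise and the motifs named. Each is cut from the 180 bases before the start. Annotated exon bases nearest the start are left out for Slc25a36 (116 bases) and Slc25a42 (24 bases), so these sequences end short of it. The TGACGTCA of Slc25a36 begins at -161 relative to the start. Slc25a25 and Slc25a36 have the TGACGTCA in capitals, Slc25a42 has CCAAT or its reverse complement in capitals, and Slc25a23 has the antioxidant core, on the other strand, in capitals. Neither of the motifs marked in Slc25a42 and Slc25a23 was limited to carriers that rose. The antioxidant core also lay in windows of Slc25a25, Slc25a33 and Slc25a5, which fell. It lay as well in those of Slc25a14 and Slc25a38, which rose, and of Slc25a3, which was not called. CCAAT matches also lay in windows of Slc25a25 and Slc25a33, among others.
Slc25a25, chr2:32424067-32424246: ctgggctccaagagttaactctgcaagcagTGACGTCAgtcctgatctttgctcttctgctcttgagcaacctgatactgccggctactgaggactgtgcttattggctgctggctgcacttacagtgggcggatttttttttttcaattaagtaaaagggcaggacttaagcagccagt
Slc25a36, chr9:97111158-97111221: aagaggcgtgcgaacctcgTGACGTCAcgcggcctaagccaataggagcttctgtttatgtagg
Slc25a42, chr8:70212306-70212461: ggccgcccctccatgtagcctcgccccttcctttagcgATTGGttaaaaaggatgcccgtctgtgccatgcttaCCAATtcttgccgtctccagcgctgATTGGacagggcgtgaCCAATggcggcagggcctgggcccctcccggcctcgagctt
Slc25a23, chr17:57059864-57060043: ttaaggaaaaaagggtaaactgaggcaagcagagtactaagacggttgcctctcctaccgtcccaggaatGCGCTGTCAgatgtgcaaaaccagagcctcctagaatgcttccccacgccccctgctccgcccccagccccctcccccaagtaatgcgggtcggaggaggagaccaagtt
The carriers that share TGACGTCA stood apart in size: Slc25a25 fell by 3.75 on the log2 scale and Slc25a36 did not pass (limma log2 fold change -0.52, 95% interval -1.01 to -0.02, adjusted p = 0.062).

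Carriers related to the uncoupling proteins, which pass protons or anions and lower the membrane potential, rose in both tested cases. Slc25a30, the more abundant, gave 31.6, 40.3 and 32.6 FPKM across control replicates 1 to 3, against 63.7, 69.2 and 78.1 FPKM across the treated ones. The groups were well separated (limma log2 fold change 1.00 with SE 0.13, adjusted p = 0.00032). Slc25a14 rose from 1.45 ± 0.391 to 3.11 ± 0.8703 FPKM (SD, n = 3 per group; limma log2 fold change 0.74, adjusted p = 0.012), a call lost under quantile normalization (log2 fold change 0.41, adjusted p = 0.09). Without replicate 3 of both groups its log2 fold change was 0.44.

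Amino acid and methyl donor carriers were mostly higher, with 5 of 8 rising, 1 falling and 2 not called. Slc25a38, which brings glycine into the matrix for haem synthesis (chromosome 9, 120110374 to 120124504, + strand), gave 7.21, 7.54 and 11.3 FPKM across control replicates 1 to 3, against 20.9, 18.5 and 18.9 FPKM across the treated ones. It had the largest rise of this group, and control replicate 3 was again the highest control (limma log2 fold change 1.10 with SE 0.19, adjusted p = 0.001). Slc25a26, which imports the methyl donor S-adenosylmethionine, rose from 2.31 ± 0.284 to 4.69 ± 0.995 FPKM (limma log2 fold change 0.77, adjusted p = 0.0053; log2 fold change 0.48 and adjusted p = 0.075 under quantile normalization). Slc25a12 and Slc25a13 encode the aspartate/glutamate carriers, the matrix exit for aspartate in the malate-aspartate shuttle. Slc25a12 rose from 21.6 ± 1.46 to 35.04 ± 2.85 FPKM (log2 fold change 0.68) and Slc25a13 from 10.9 ± 0.516 to 14.98 ± 0.456 FPKM (limma log2 fold change 0.43, adjusted p = 0.018). The call of Slc25a13 was lost under both other scalings (adjusted p = 0.066 and 0.12) and without sulfasalazine replicate 1 or 2 (adjusted p = 0.065 and 0.08). Slc25a15, the ornithine carrier of the urea cycle, rose from 1.502 ± 0.0783 to 2.45 ± 0.184 FPKM, a call lost without sulfasalazine replicate 1 or 2 (adjusted p = 0.07 and 0.053) and under quantile normalization (log2 fold change 0.12, adjusted p = 0.43).

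Slc25a44, a carrier of branched-chain amino acids, went the other way and gave 36.4, 27.3 and 23.4 FPKM across control replicates 1 to 3, against 20.3, 20.9 and 19.9 FPKM across the treated ones. The groups did not overlap, but the fall was shallow (limma log2 fold change -0.47 with SE 0.17, adjusted p = 0.038) and was lost on leaving out any 1 library other than control replicate 3 (adjusted p = 0.072 to 0.1); without control replicate 1 the log2 fold change was -0.30. Slc25a22, a glutamate carrier, stood at 26.3 ± 7.14 FPKM untreated against 31.01 ± 2.29 FPKM treated (limma log2 fold change 0.26, 95% interval -0.17 to 0.68, adjusted p = 0.25). Slc25a29, a carrier of basic amino acids, stood at 10.1 ± 3.52 FPKM untreated against 12.8 ± 1.37 FPKM treated (limma log2 fold change 0.35, 95% interval -0.17 to 0.87, adjusted p = 0.2). In both, control replicate 3 was above at least 1 sulfasalazine library, and without it both passed as higher (log2 fold changes 0.46 and 0.59, adjusted p = 0.005 and 0.0064).

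All 4 tested carboxylate and acylcarnitine carriers were higher with sulfasalazine, 3 of 3 without Slc25a35, which passed the filter only in treated libraries. Slc25a10 swaps malate or succinate for phosphate (chromosome 11, 120491840 to 120499187, + strand) and gave 15.6, 16.2 and 29.8 FPKM across control replicates 1 to 3, against 72.2, 69.9 and 87.96 FPKM across the treated ones. Control replicate 3 was well above the other controls and still far below every treated library (limma log2 fold change 1.91 with SE 0.24, adjusted p = 0.00021). Slc25a20 brings acylcarnitines into the matrix for fatty acid oxidation (chromosome 9, 108662088 to 108684641, + strand). It gave 9.04, 7.09 and 12.3 FPKM across control replicates 1 to 3, against 31.8, 28.6 and 26.8 FPKM across the treated ones, again without overlap (limma log2 fold change 1.55 with SE 0.20, adjusted p = 0.00022). Slc25a11, which swaps malate for oxoglutarate in the malate-aspartate shuttle, rose from 82.9 ± 21.1 to 154 ± 4.68 FPKM (log2 fold change 0.92), and 8.92% of its exonic bases lie in Rnf167 on the opposite strand, which also rose (log2 fold change 0.76). Slc25a35, whose substrate is not settled (chromosome 11, 68968131 to 68974365, + strand), had the largest log2 fold change of the family. It gave 0.171, 0.0919 and 0.0598 FPKM across control replicates 1 to 3, against 5.99, 6.61 and 5.39 FPKM across the treated ones. That is 7, 4 and 2 reads in the controls and 271, 276 and 217 reads with sulfasalazine (limma log2 fold change 2.66 with SE 0.14, adjusted p = 5.6e-06). With a pseudocount of 0.1 the log2 fold change was 4.91, since adding 1 FPKM compresses a change that starts near 0. Rangrf on the opposite strand covers 31.3% of its exonic bases and stood at 3.14, 5.13 and 4.65 FPKM untreated against 7.03, 6.08 and 8.48 FPKM treated (log2 fold change 0.64); the sources used here do not state how reads were split between them. Smaller shares of exonic bases lie in other genes for Slc25a10 (6.6%, Gm11788) and Slc25a37 (6.33%, Gm31748).

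Iron and glutathione carriers split, 1 higher, 1 lower and 2 not called of 4. Slc25a39 imports glutathione into mitochondria (chromosome 11, 102402985 to 102407946, - strand) and was the most abundant carrier in every library, at 626, 671 and 920.2 FPKM across control replicates 1 to 3, against 461, 472 and 478 FPKM across the treated ones. The sulfasalazine libraries lay closely together below all controls (limma log2 fold change -0.63 with SE 0.16, adjusted p = 0.008). Without control replicate 3, the highest, the log2 fold change was -0.46. Its relative Slc25a40 was far less abundant at 2.56 ± 0.303 FPKM untreated against 2.41 ± 0.449 FPKM treated and did not pass (limma log2 fold change -0.07, 95% interval -0.43 to 0.30, adjusted p = 0.73), though under quantile normalization it passed as lower (log2 fold change -0.39, adjusted p = 0.044). The mitoferrins Slc25a28 and Slc25a37 import iron for haem and iron-sulfur clusters. Slc25a28 gave 11.2, 15.2 and 21.02 FPKM across control replicates 1 to 3, against 29.7, 29.4 and 37.4 FPKM across the treated ones. All treated libraries were higher than the controls, which spread widely (limma log2 fold change 1.01 with SE 0.22, adjusted p = 0.0039). Slc25a37, the mitoferrin of red cell precursors, gave 69.5, 75.5 and 56.2 FPKM across control replicates 1 to 3, against 50.2, 49.1 and 58.7 FPKM across the treated ones. Its groups overlapped through replicate 3 of both groups (limma log2 fold change -0.34, 95% interval -0.66 to -0.02, adjusted p = 0.061). Without control replicate 3 it passed as lower (adjusted p = 0.0055), as it did under median-of-ratios scaling (adjusted p = 0.015).

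Among nucleotide and cofactor carriers 4 of 8 rose, 2 fell and 2 did not pass (3, 2 and 2 of 7 without Slc25a42). Slc25a42 imports coenzyme A (chromosome 8, 70184340 to 70212305, - strand). It gave 0.584, 0.583 and 0.981 FPKM across control replicates 1 to 3, against 5.27, 5.65 and 5.82 FPKM across the treated ones. The controls were all below 1 FPKM and the treated libraries all above 5 FPKM (limma log2 fold change 1.95 with SE 0.15, adjusted p = 2.2e-05; 2.83 with a pseudocount of 0.1). Slc25a17, a cofactor carrier of peroxisomes, rose from 29.4 ± 4.52 to 56.4 ± 1.17 FPKM (log2 fold change 0.93). The NAD carrier Slc25a51 rose from 24.5 ± 2.09 to 38.6 ± 3.63 FPKM (0.63 on the log2 scale).

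The pyrimidine nucleotide carrier Slc25a33, which supplies the matrix for mitochondrial DNA and RNA synthesis (chromosome 4, 149744036 to 149774277, - strand), fell steeply. It gave 43.6, 52.6 and 48.6 FPKM across control replicates 1 to 3, against 9.003, 9.47 and 10.8 FPKM across the treated ones. Here control replicate 3 lay between the other controls (limma log2 fold change -2.20 with SE 0.13, adjusted p = 9.1e-06); 14.9% of its exonic bases lie in Gm13068 on the opposite strand. Slc25a32, a carrier of folate and flavin cofactors, gave 10.5, 7.01 and 7.53 FPKM across control replicates 1 to 3, against 3.84, 3.43 and 5.19 FPKM across the treated ones and fell (limma log2 fold change -0.86 with SE 0.20, adjusted p = 0.0061). Slc25a36, the other pyrimidine carrier, stood at 13.9 ± 3.13 FPKM untreated against 9.37 ± 2.09 FPKM treated, and Slc25a16, linked to coenzyme A transport, at 10.8 ± 1.995 FPKM untreated against 8.22 ± 0.233 FPKM treated. Neither passed with all libraries, and both passed as lower without control replicate 3 (adjusted p = 0.014 and 0.014), with median-of-ratios size factors (adjusted p = 0.019 and 0.033) and under quantile normalization. Slc25a36 also passed without sulfasalazine replicate 3 (adjusted p = 0.038).

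The carriers of other or unsettled substrate included both strong rises and a strong fall. Slc25a48 (chromosome 13, 56438355 to 56474239, + strand) gave 12.99, 13.002 and 8.12 FPKM across control replicates 1 to 3, against 1.49, 1.22 and 1.29 FPKM across the treated ones. All treated libraries were near 1 FPKM, well below the lowest control (limma log2 fold change -2.38 with SE 0.20, adjusted p = 3.2e-05). Slc25a45 gave 5.07, 5.402 and 12.3 FPKM across control replicates 1 to 3, against 27.2, 25.1 and 26.2 FPKM across the treated ones. Control replicate 3 was well above the other controls, and no library of one group reached the other (limma log2 fold change 1.76 with SE 0.29, adjusted p = 0.00086; log2 fold change 2.12 without control replicate 3). Slc25a47, a carrier best known from liver, gave 3.798, 2.56 and 3.17 FPKM across control replicates 1 to 3, against 10.4, 9.503 and 9.53 FPKM across the treated ones and rose (limma log2 fold change 1.38 with SE 0.16, adjusted p = 0.00016). Slc25a53 fell from 1.24 ± 0.282 to 0.664 ± 0.125 FPKM, close to the filter, and the call was lost without any 1 sulfasalazine library (adjusted p = 0.069 to 0.15). Its log2 fold change of -0.42 became -0.80 with a pseudocount of 0.1. Slc25a46, a member of the outer membrane that shapes mitochondria, stood at 11.1 ± 2.85 FPKM untreated against 7.85 ± 1.64 FPKM treated and did not pass (limma log2 fold change -0.43, 95% interval -0.95 to 0.09, adjusted p = 0.12); without control replicate 3 it passed as lower (adjusted p = 0.0099), as under both other scalings (adjusted p = 0.045 and 0.02).

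Ratios of related carriers within a library show how the balance between related members moved. Over 8 such pairs the groups separated for 6, each at the smallest two-sided exact permutation p that 3 against 3 allows, 0.1 (0.133 after Benjamini-Hochberg adjustment over the 8), so no pair can pass the threshold. The 6 include Slc25a23 to Slc25a24, where Slc25a23 reached the filter only in the treated libraries and so had to differ. Slc25a24 also stands in the pair with Slc25a25, so the separations are not independent of each other. Taken singly, 71.4% of all tested genes separated, and no share over other gene pairs was computed. The Slc25a28 to Slc25a37 ratio of the mitoferrins was 0.161, 0.201 and 0.374 in the controls and 0.592, 0.599 and 0.636 with sulfasalazine. For the dicarboxylate carriers, Slc25a10 to Slc25a11 was 0.211, 0.239 and 0.279 in the controls and 0.483, 0.451 and 0.554 with sulfasalazine. The pyrimidine pair Slc25a33 to Slc25a36 moved the other way, at 2.55, 3.85 and 4.49 in the controls and 0.975, 1.29 and 0.935 with sulfasalazine. Slc25a25 to Slc25a24, both ATP-Mg carriers, was 2.91, 3.07 and 2.45 in the controls and 0.454, 0.599 and 0.669 with sulfasalazine. In these 4 pairs the treated libraries lay wholly on one side of the controls. By contrast, Slc25a12 to Slc25a13 was 2.21, 2.01 and 1.76 in the controls and 2.2995, 2.17 and 2.55 with sulfasalazine, with overlap (exact permutation p = 0.2), and the Slc25a40 to Slc25a39 ratio also overlapped.

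**Figure D3:**
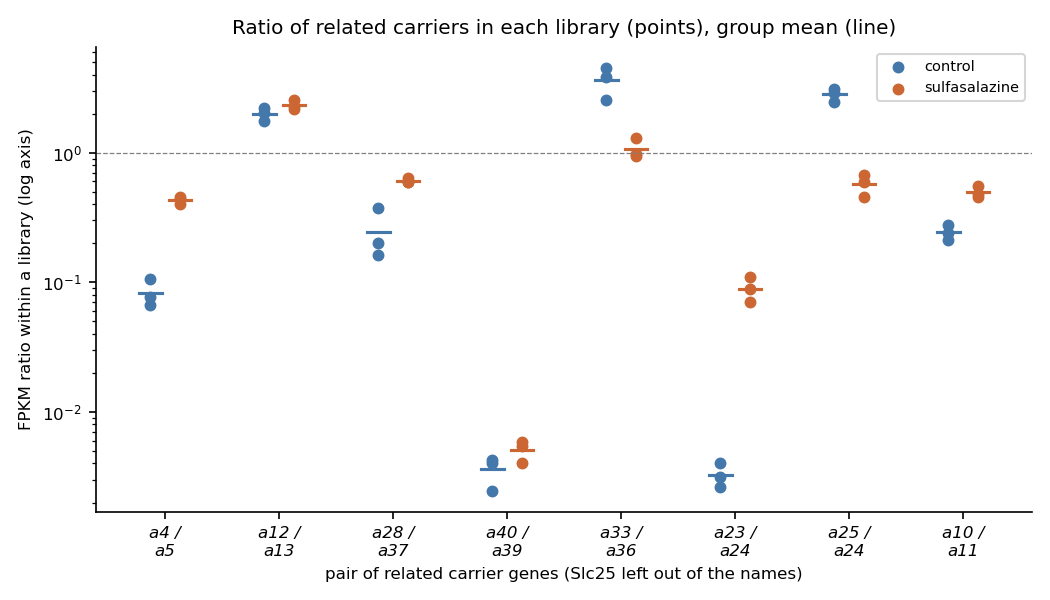
Ratio of the FPKM of 2 related carrier genes within each library (points, log axis) for 8 pairs, with the mean of the 3 libraries of a group as a line. The Slc25a4 to Slc25a5 ratio moves from 0.0672 to 0.105 in the controls to 0.403 to 0.451 with sulfasalazine, and the ratios of Slc25a12 to Slc25a13 and of Slc25a40 to Slc25a39 overlap between the groups.

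Summed over the 39 genes, carrier transcripts stood at 1953, 1982 and 2187 FPKM untreated against 1798, 1814 and 1869 FPKM treated. The sum was thus lower in every treated library although more carriers rose. Slc25a39 alone made up 35.98% ± 5.36 of it in the controls and 25.7% ± 0.253 with sulfasalazine (SD, n = 3). Without Slc25a39 the sum was 1302 ± 31.7 FPKM and 1357 ± 29.5 FPKM; as a share of all FPKM in a library it was 0.201%, 0.192% and 0.179% untreated against 0.184%, 0.184% and 0.197% treated, where the groups overlapped, so it has no direction that holds on both scales. Slc25a25 went from 9.34% ± 2.93 of the family to 0.704% ± 0.152, and Slc25a11 from 4.03% ± 0.766 to 8.45% ± 0.123.

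Genes that work with or alongside the carriers were described from lists beside the family. In what follows a value in brackets after a change in FPKM is the limma log2 fold change. Beside the counts of each list, 37.2% of all tested genes were higher and 29.3% were lower. Of 10 tested genes of the machinery that imports carrier proteins, 6 were lower, 2 higher and 2 not called (median log2 fold change -0.51). The small chaperone gene Timm10 gave 59.8, 60.2 and 53.2 FPKM across control replicates 1 to 3, against 22.6, 20.2 and 22.3 FPKM across the treated ones, without overlap (limma log2 fold change -1.37 with SE 0.11, adjusted p = 2.9e-05). Timm8a1, another small chaperone gene, fell from 12.1 ± 2.14 to 4.19 ± 0.429 FPKM and the import receptor gene Tomm70a from 57.04 ± 7.06 to 23.6 ± 2.14 FPKM (log2 fold changes -1.33 and -1.23), while Timm10b rose from 1.52 ± 0.184 to 3.28 ± 0.542 FPKM (0.76).

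All 4 tested carnitine acyltransferases rose, the enzymes that make and unmake the cargo of Slc25a20. Cpt1a, the outer membrane enzyme that forms long-chain acylcarnitines, gave 23.8, 11.5 and 16.95 FPKM across control replicates 1 to 3, against 208, 207 and 195 FPKM across the treated ones. Treated libraries were far above all controls (limma log2 fold change 3.53 with SE 0.22, adjusted p = 1e-05). Crot, Cpt2 and Crat rose by 1.63, 1.33 and 0.59 on the log2 scale. Family members and other inner membrane transporters under other names had 6 higher and 2 lower of 8 tested. Sfxn2 and Sfxn5 reached the filter only in the treated libraries and so had to differ; without them the count was 4 higher and 2 lower of 6. Sfxn3, a sideroflexin of serine transport, rose from 10.8 ± 3.35 to 66.6 ± 5.22 FPKM (2.56), Mtch1, a carrier-like protein of the outer membrane, from 55.1 ± 19.9 to 189 ± 3.46 FPKM (1.82), Sfxn2 from 0.579 ± 0.0851 to 3.89 ± 0.921 FPKM (1.62) and Sfxn5 from 0.492 ± 0.116 to 2.99 ± 0.583 FPKM (1.41).

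Enzymes of the malate-aspartate shuttle, which works with Slc25a11, Slc25a12 and Slc25a13, were listed together with those of the glycerophosphate shuttle. Of these 6 genes, 3 were higher, 1 lower and 2 not called. The cytosolic aminotransferase gene Got1 fell from 316 ± 28.7 to 72.4 ± 9.36 FPKM (-2.12) while the cytosolic malate dehydrogenase gene Mdh1 rose from 37.8 ± 4.96 to 111 ± 5.79 FPKM (1.54). Got2 rose by 0.36. Gpd1 (0.75) reached the filter only in the treated libraries and so had to differ; without it 2 were higher and 1 lower of 5. Genes of the haem and iron-sulfur cluster pathways, which draw on imported iron, had 3 higher, 1 lower and 3 not called of 7. Of all tested genes, 37.2% were higher and 29.3% lower. Fech, which inserts iron into haem, rose from 10.9 ± 0.374 to 33.6 ± 0.627 FPKM (1.53), the cysteine desulfurase gene Nfs1 from 16.7 ± 1.61 to 48.005 ± 4.02 FPKM (1.47), and Alas1 by 0.60.

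Regulators of mitochondrial biogenesis were lower in 6 of 12 cases and higher in 1. Ppargc1a, a coactivator of mitochondrial genes, fell from 18.8 ± 8.98 to 2.24 ± 0.646 FPKM (-2.53), Gabpb1 from 31.99 ± 7.15 to 10.8 ± 1.29 FPKM (-1.46) and Pprc1 from 95.1 ± 13.9 to 54.7 ± 0.448 FPKM (-0.78), while the methyltransferase gene Tfb1m rose (0.81). Of the outer membrane channels, Vdac1 rose from 202 ± 27.5 to 300.2 ± 16.9 FPKM (0.57), Vdac2 fell from 269.8 ± 12.5 to 179.6 ± 10.6 FPKM (-0.59) and Vdac3 stood at 28.3 ± 3.35 FPKM untreated against 33.9 ± 0.749 FPKM treated. The 13 mitochondrially encoded genes had 10 higher and 0 lower, led by mt-Nd6 and mt-Nd5 (2.40 and 1.61); their part in the carrier results was not tested.

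**Figure D4:**
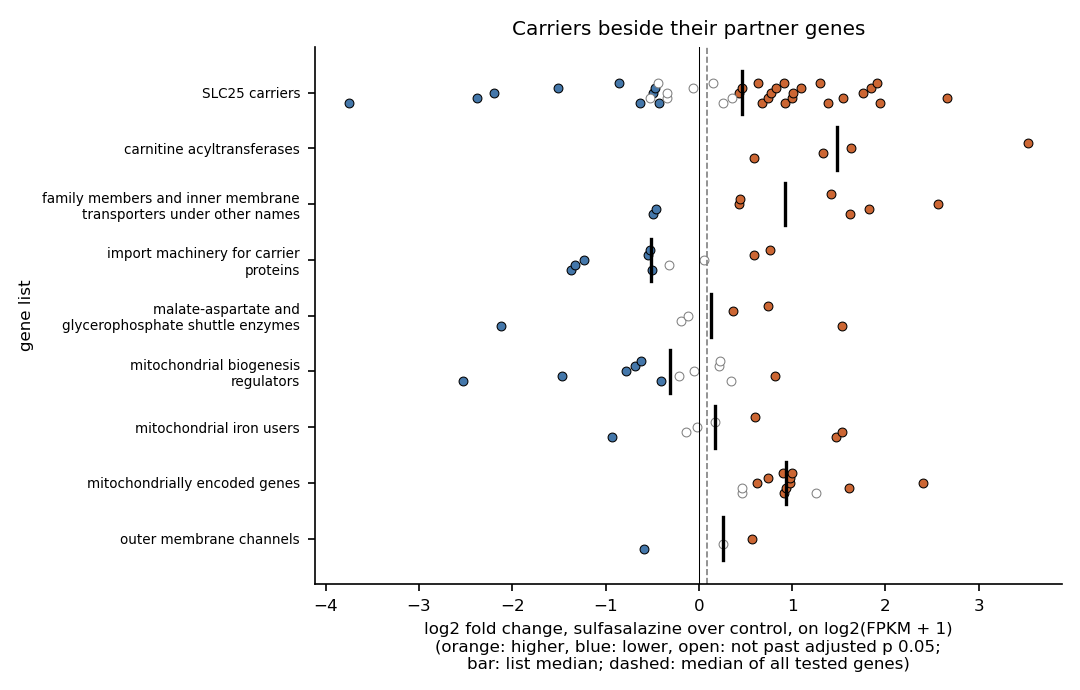
Log2 fold change (sulfasalazine over control) of each tested gene (points) in the carrier family and in 8 lists of partner genes, with the list median as a bar and the median of all tested genes (0.08) as a dashed line. The 4 carnitine acyltransferases and the mitochondrially encoded genes lie to the right of 0, whereas most import genes and biogenesis regulators lie to the left.

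In the authors' deposited table, at their adjusted p under 0.05, 19 of the 39 carriers were higher and 12 lower, where 28.2% and 26.8% of the 14003 genes were. Of the 29 carriers called here, 28 were called in the same direction in the authors' deposited table. The exception was Slc25a13, at a log2 fold change of 0.37 and an adjusted p of 0.15 in the authors' deposited table.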

How the data were processed

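The 6 RNA-seq libraries were grouped by their titles. Per the labels' protocols, the RNA kit is one for plants, rRNA was removed with a kit for bacteria, and reads were paired-end. The submitters' processing notes name HTSeq 0.13.5, edgeR, HISAT2 2.2.1, fastp 0.23.0 and the build mm39, without roles. Per the file headers, the authors deposited FPKM per library, a library-size-adjusted signal per gene, and a log2 ratio per gene with its p-value and adjusted p-value. Of the 14003 genes, 13982 matched GENCODE M21 and 13849 had its start and end, so coordinates are given as GRCm38. Whole reads were recovered from the FPKM steps (100% of values within 0.001 reads), with the set nearest to the deposited signal where several were possible.

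Tested genes reached 1 FPKM or more in 3 or more libraries; the values were log2(FPKM + 1), fitted with limma 3.58.1 in R 4.3.3 (intensity trend, two-sided, Benjamini-Hochberg over all 10338 genes, adjusted p under 0.05). Adding 1 FPKM understates the change of low genes. Errors are SDs over 3 libraries. Other work used Python 3.11.15. The test was tested on simulated data. The members and gene lists were chosen with earlier results of these data known. Values in every library are given for the 8 rises and 8 falls with the largest change among called carriers without overlap, the leading called carrier of each substrate group and the 3 most abundant; up to 4 called genes are named per partner list. Results of 1 carrier and 1 partner gene are not reported here; both stay in the counts. Alternatives were a pseudocount of 0.1, other filters, median-of-ratios and quantile scaling, no trend, a replicate block, omission of each library, an adjusted p under 0.01 and a minimum log2 change of 1. Added after the data were seen were voom on the recovered reads and leaving out replicate 3 of both groups.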

Additional observations from a re-analysis of the deposited data

How the results depend on the processing

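All 29 called carriers kept their direction under every alternative that tested them, and 23 also kept their call under all of these apart from the stricter thresholds; the exceptions, Slc25a13, Slc25a14, Slc25a15, Slc25a26, Slc25a44 and Slc25a53, are given with their values above, except that under the replicate block Slc25a13, Slc25a44 and Slc25a53 had adjusted p = 0.06, 0.054 and 0.053, and Slc25a44 had 0.052 with no filter. The median log2 fold change of the tested carriers was 0.38 under median-of-ratios scaling, 0.34 under quantile normalization, 0.65 with a pseudocount of 0.1 and 0.66 with voom on the recovered reads, and 0.35 to 0.60 on leaving out 1 library; the cause was not tested, though a smaller pseudocount enlarges changes of low genes by construction. Median-of-ratios scaling moved the median of all tested genes by -0.12; relative to that median the carriers stood at 0.38 in the fit reported, 0.41 under median-of-ratios scaling and 0.36 under quantile normalization. Requiring an absolute log2 fold change above 1 left 10 higher and 4 lower, with Slc25a35, Slc25a42 and Slc25a23 among the 10. On leaving out 1 library, 15 to 22 carriers were higher and 7 to 12 lower; without control replicate 3 they numbered 22 and 12. Without a sulfasalazine library 34 carriers were tested, since Slc25a35, Slc25a42 and Slc25a23 then fell under the filter. Slc25a40, not called, ran from -0.15 to 0.042 on leaving out 1 library and changed sign without sulfasalazine replicate 2, where it was 0.042. With the replicate number as a block, 19 were higher and 7 lower; the pairing was not borne out, as deviations of same-numbered libraries correlated at 0.036, -0.19 and -0.17 across genes, and no library correlated best with its own number. Depth limits the low carriers, whose lowest library held 2 reads for Slc25a35 and 4 for Slc25a23.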
